A study of Rattus norvegicus with 8 samples.

Results

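Genes of glycolysis, lactate handling, glycogen and the citrate cycle were examined in rat brain cells taken at postnatal day 7 and sorted as positive for A2B5 and OTMP. A2B5 recognises gangliosides on the surface of glial precursor cells. The labels call the cells perineuronal oligodendrocytes, which are oligodendrocytes that lie against neuronal cell bodies. Each of 4 biological replicates was hybridised to 2 types of Affymetrix array, chip A and chip B, which gives 8 arrays of 1 cell population and no control group. Strain, sex and the number of animals in a replicate are not given in the sources used here. A list of 38 genes was matched to probe sets annotated to exactly 1 gene, and a gene's value is the mean log2 ratio over its probe sets on an array type. On chip A 35 of the 38 had a value, over 47 probe sets, among 10411 genes with one. On chip B 6 of them did (Hk1, Pfkm, Slc16a1, Pdk4, Ogdh and Sucla2), with 1 probe set each, among 5667 genes. Gapdh had probe sets annotated to it alone only among the control probe sets, which are given apart, and Pkm and Fh had no probe set annotated to 1 gene.

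Every deposited value is a linear ratio, in which the signal of a probe set was divided by that of an unnamed reference. A log2 ratio of 0 therefore means a signal equal to that reference, and a ratio gives neither how abundant a transcript was nor whether one gene was expressed above another. In a mixed sample, fewer cells of a type and less RNA per cell cannot be told apart. Values are means ± SD of log2 ratios over the 4 arrays of a type (n = 4), and calls are those of limma against a ratio of 1 with Benjamini-Hochberg adjustment at 0.05 over all genes of the array type. Because 1 population was measured, a p-value tests only whether a mean ratio differs from 1, judged against the spread between these replicates. The median ratio was below 1 on every array, and a call depends on where the reference lies.

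Glycolysis splits glucose into pyruvate in the cytosol, and pyruvate is then either reduced to lactate or carried into the mitochondrion, where pyruvate dehydrogenase feeds the citrate cycle. Several steps are served by isozymes that brain cell types use to different degrees: aldolase C and the brain form of glycogen phosphorylase are prominent in astrocytes, which also hold most of the brain's glycogen and its pyruvate carboxylase. Oligodendrocytes take part in lactate supply to axons through the monocarboxylate transporter MCT1, the product of Slc16a1.

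On chip A 6 of the 35 genes were higher than the reference, 10 were lower and 19 passed in neither direction. The higher genes were Aldoc, Pc, Pygb, Pfkm, Slc16a1 and Slc2a1, and the lower ones Hk2, Pdk4, Slc16a7, Ldha, Slc2a3, Pdha1, Mdh2, Cs, Sucla2 and Pgk1. Of all genes on chip A, 9.17% were higher and 32.9% lower, so that the share of lower genes in the set (28.6%) was near the background, and its median log2 ratio (-0.14) equalled that of all genes (-0.14). The 17.1% of higher genes rests on 6 genes and was given no test of its own. On chip B 0 of 6 were higher and 2 were lower, Slc16a1 and Sucla2, where 4.13% of all genes were higher and 30.9% lower. At an unadjusted p under 0.05 in limma, 0 of the 6 were higher on chip B too. After each array was centred on its own median, which added 0.12 to the log2 ratios of chip A and 0.10 to those of chip B, the chip A counts were 6 higher and 8 lower, against 12.3% and 24.6% of all genes. On chip B they were then 0 higher and 1 lower, against 4.98% and 25.0%. With a minimum change of 0.5 on the log2 scale, 4 genes were higher and 6 lower on chip A (6.33% and 22.0% of all genes), and 0 were higher and 1 lower on chip B (3.16% and 20.7%). In a fit over single probe sets, used where the probe sets of a gene disagree, 9.21% of all probe sets were higher and 30.1% lower on chip A. For chip B those shares were 5.08% and 27.1%. Of all calls on chip A 21.8% were on the higher side, or 33.4% after centring.

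**Figure D1:**
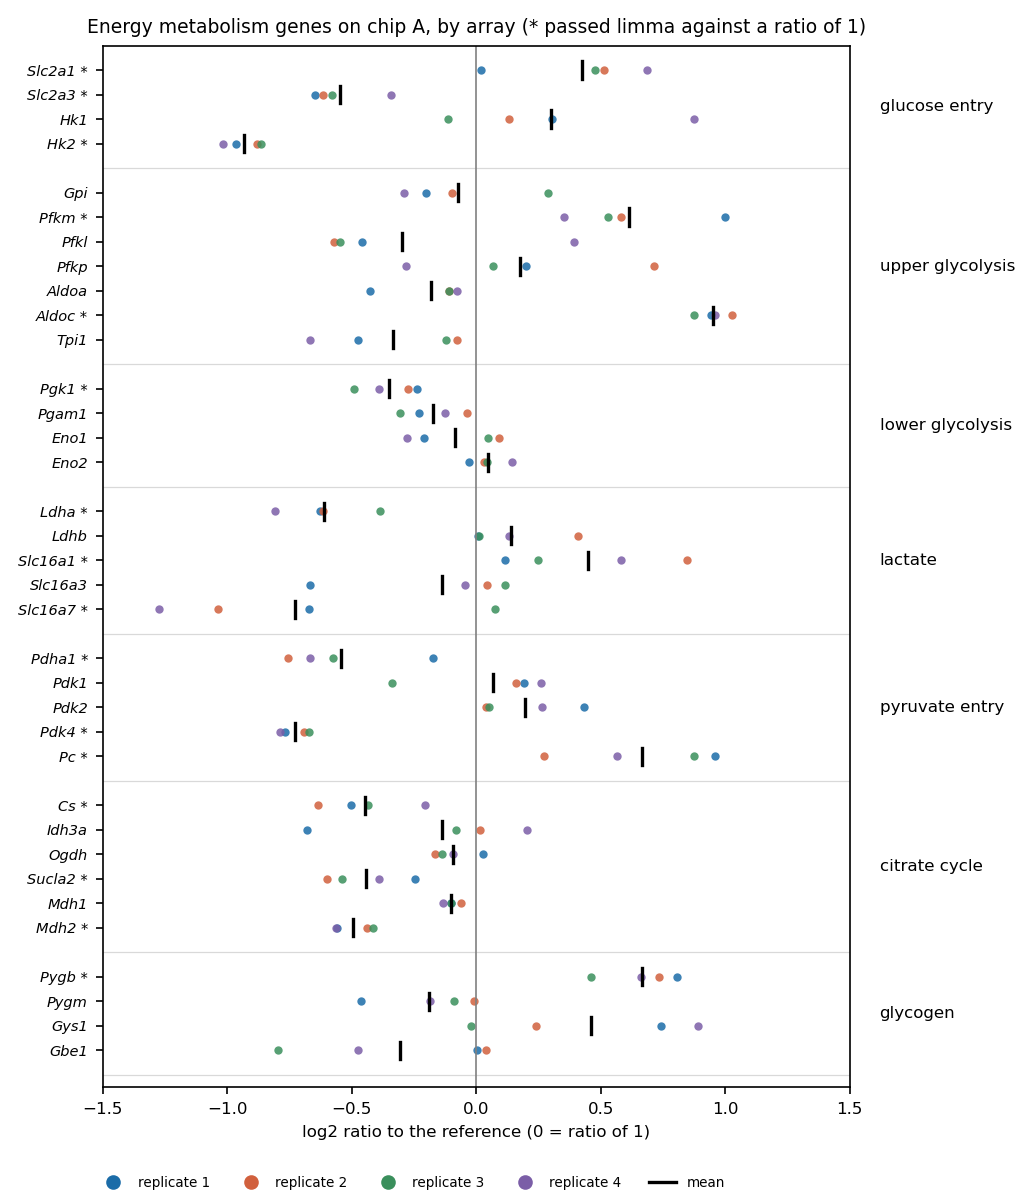
Log2 ratio to the reference of the 35 genes with a value on chip A, by pathway branch, with 1 point per array (4 replicates) and a bar at the mean; an asterisk marks genes that passed limma against a ratio of 1. Aldoc lies near 0.95 on all 4 arrays and Hk2 near -0.93, while most citrate cycle and lower glycolysis genes lie at or left of 0.

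Promoter sequence is shown for 3 genes on which the results turn, Aldoc and Pygb as higher genes and Ldha as a lower one. The windows are the 250 bases before the annotated start, from RefSeq on assembly GRCr8, written 5′ to 3′ on the gene's strand, and capitals mark ACGTG on either strand, the core of the element bound by hypoxia-inducible factors, which are known to act on glycolytic genes.
Aldoc, chr10:63715294-63715543, plus strand: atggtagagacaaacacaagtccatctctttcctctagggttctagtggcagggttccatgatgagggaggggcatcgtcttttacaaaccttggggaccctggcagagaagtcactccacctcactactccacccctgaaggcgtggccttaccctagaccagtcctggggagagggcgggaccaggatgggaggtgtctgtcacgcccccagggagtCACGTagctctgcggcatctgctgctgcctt
Pygb, chr3:160071891-160072140, plus strand: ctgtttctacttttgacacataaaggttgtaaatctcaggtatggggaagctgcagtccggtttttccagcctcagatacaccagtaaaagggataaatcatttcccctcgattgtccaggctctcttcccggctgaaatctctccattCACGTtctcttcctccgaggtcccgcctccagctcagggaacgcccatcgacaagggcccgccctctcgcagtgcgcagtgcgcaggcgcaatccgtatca
Ldha, chr1:106507842-106508091, plus strand: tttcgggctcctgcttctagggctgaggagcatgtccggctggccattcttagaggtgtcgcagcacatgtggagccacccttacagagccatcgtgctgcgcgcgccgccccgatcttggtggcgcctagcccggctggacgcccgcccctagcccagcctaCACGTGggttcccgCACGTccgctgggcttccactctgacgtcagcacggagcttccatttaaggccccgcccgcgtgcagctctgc
The Aldoc window held 1 match, which began 31 bases before the start (position -31), and that of Pygb 1 match at position -101. The Ldha window held 3, of which those at -87 and -86 overlap as the palindrome CACGTG and the other lay at -73. Over windows from 250 bases before to 50 after a start, counting a gene with several starts if any window matched, 20 of the 34 listed genes in the RefSeq table held a match (58.8%), against 25.4% of the 8630 chip A genes in it and 20.9% of all 27457 genes. The motif stood in 5 of 5 higher genes, 2 of 8 lower genes and 11 of 18 genes that passed in neither direction. Pc among the higher genes, Slc2a3 and Pgk1 among the lower ones and Idh3a were not read. A match describes letters only, and the counts were given no test.

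Glucose enters brain cells through facilitative transporters and is trapped by hexokinase. Slc2a1, which encodes the transporter GLUT1 of vessels and glia, had ratios of 1.02, 1.43, 1.39 and 1.61 in replicates 1 to 4, a mean log2 ratio of 0.42 ± 0.28 (limma adjusted p = 0.0357). Replicate 1 lay at the reference and the other 3 above it, and the call was lost without replicate 2, 3 or 4 (limma adjusted p = 0.0957, 0.1 and 0.116). Slc2a3, which encodes GLUT3, the main transporter of neurons, had a gene mean of -0.55 ± 0.14 (limma adjusted p = 0.00343). That mean joined 2 probe sets that stood apart: one at 1.02, 0.997, 1.04 and 1.57, not called, and the other at 0.401, 0.428, 0.43 and 0.396 (limma adjusted p = 0.000123 in a fit over probe sets).

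Hk1, the hexokinase of most brain cells, had ratios of 1.24, 1.096, 0.924 and 1.83 on chip A (0.30 ± 0.42, limma adjusted p = 0.2) and of 0.922, 0.944, 0.974 and 0.974 on chip B (-0.07 ± 0.04, limma adjusted p = 0.301). Only replicate 4 on chip A stood well above the reference. Hk2, the insulin-responsive form best known from muscle, had 0.512, 0.543, 0.55 and 0.494 (-0.93 ± 0.07, limma adjusted p = 0.000276), the lowest mean of the set on chip A. Its 4 arrays were alike, and all lay below every Hk1 value. The array's hexokinase control probe sets, which the annotation gives to Hk1, read 0.902 to 1.04 at the 5′ end, 0.645 to 0.722 in the middle and 0.68 to 0.807 at the 3′ end of the transcript on chip A. The middle and 3′ controls thus lay below the reference on all 4 arrays, while the ordinary Hk1 probe set was above it on 3 of 4.

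In upper glycolysis glucose 6-phosphate is rearranged, phosphorylated again by phosphofructokinase and cleaved by aldolase. Aldoc, the aldolase isozyme of brain and a widely used astrocyte marker, had ratios of 1.92, 2.04, 1.83 and 1.95 (0.95 ± 0.06, limma adjusted p = 0.000242). It was the highest gene of the set, at percentile 97.2 of all chip A genes, and its replicates were close together. Aldoa, the isozyme of muscle and most other tissues, had 0.744, 0.928, 0.926 and 0.949 (-0.18 ± 0.17, limma adjusted p = 0.153), with replicate 1 lowest. All 4 Aldoc values lay above all 4 Aldoa values.

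The 3 phosphofructokinase genes, for the muscle (Pfkm), liver (Pfkl) and platelet (Pfkp) forms of the enzyme that commits glucose to glycolysis, differed in reliability. Pfkm had a gene mean of 0.62 ± 0.27 (limma adjusted p = 0.00903) from 2 probe sets on chip A. One read 2.18, 2.53, 2.23 and 2.04 (1.16 ± 0.13, limma adjusted p = 0.000232 over probe sets), while the other read 1.84, 0.883, 0.934 and 0.796 and was above the reference in replicate 1 alone. A Pfkm probe set on chip B read 0.807, 1.05, 1 and 0.996. The call of Pfkm therefore rests on 1 of its 3 probe sets. Pfkl had 0.727, 0.673, 0.684 and 1.31 (-0.30 ± 0.46), with replicate 4 alone above the reference, and was lower without that replicate (-0.53, limma adjusted p = 0.0109, against 0.237 with it). Pfkp had 1.15, 1.64, 1.05 and 0.822 (0.17 ± 0.41, limma adjusted p = 0.436). Gpi, the glucose phosphate isomerase gene, averaged -0.07 ± 0.25 and Tpi1, which encodes triose phosphate isomerase, -0.33 ± 0.29 (limma adjusted p = 0.633 and 0.0737).

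The payoff steps of lower glycolysis lay at or slightly below the reference, with 1 of 4 measured genes lower (25%, against 32.9% of all chip A genes). Their median log2 ratio of -0.13 was near that of all genes (-0.14). Pgk1, whose product makes the first ATP of the pathway, had gene means of 0.847, 0.827, 0.712 and 0.763 as ratios (-0.35 ± 0.11, limma adjusted p = 0.0145). Its 3 probe sets averaged -0.60, -0.36 and -0.09, and the call was lost after centring (-0.23, limma adjusted p = 0.0626) and without replicate 4 (limma adjusted p = 0.0561). Pgam1, the phosphoglycerate mutase gene, averaged -0.18 ± 0.12 (limma adjusted p = 0.121). The enolase genes were near the reference, with Eno2, the isozyme known as neuron-specific enolase, at 0.979, 1.02, 1.03 and 1.11 (0.05 ± 0.07, limma adjusted p = 0.622). Eno1, the isozyme of most cells, stood at 0.866, 1.07, 1.03 and 0.825 (-0.09 ± 0.18, limma adjusted p = 0.497), and the values of the enolase genes overlapped.

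Gapdh, whose product oxidizes glyceraldehyde phosphate, shared its ordinary chip A probe set with Gapdhl10. That probe set read 0.833, 0.738, 1.01 and 0.738 and was not called (-0.28, limma adjusted p = 0.0796 over probe sets). A probe set shared by Pkm and Pkm-ps20 was lower (-0.30, limma adjusted p = 0.0254 in the same fit). Neither entered the gene means. The probe sets for Gapdh alone were controls, which probe the 5′ end, the middle and the 3′ end of its transcript. On chip A the 3′ probe set read 0.857, 0.901, 0.975 and 0.837, and the 5′ one 0.545, 0.573, 0.991 and 0.305. The ratios were thus lower at the 5′ end in replicates 1, 2 and 4 and even along the transcript in replicate 3. The log2 difference of the 5′ end from the 3′ end was -0.65, -0.65, 0.02 and -1.46 on chip A. Chip B gave -0.58, -0.83, -0.03 and -1.57, with replicate 4 again lowest and replicate 3 again near 0. The beta-actin controls differed less, at -0.16, -0.17, -0.06 and -0.87 on chip A, and again most in replicate 4, while the hexokinase controls ran the other way, at 0.43, 0.33, 0.36 and 0.39. Such end controls are read as signs of RNA length and labelling. Replicate 4 gave the highest value for 10 of the 35 genes and the lowest for 11, and the part of RNA length in these results was not tested.

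**Figure D2:**
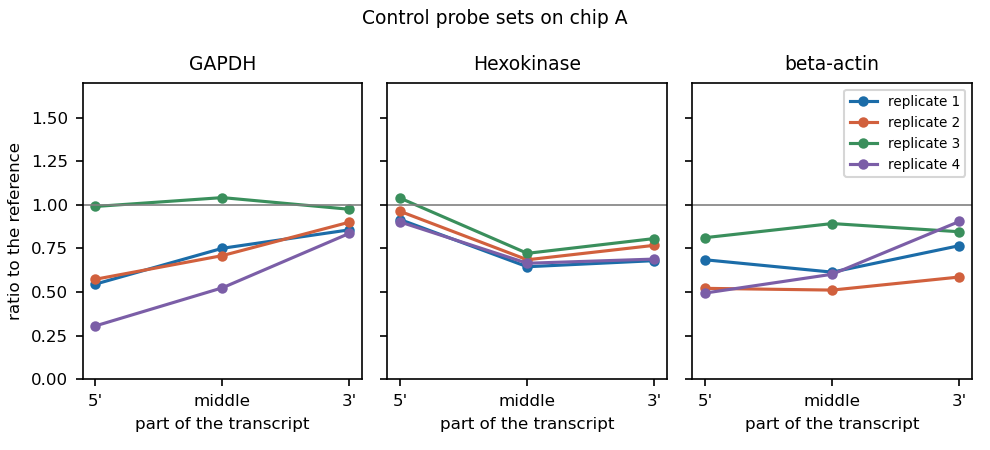
Ratio to the reference of the control probe sets for the 5′ end, middle and 3′ end of the GAPDH, hexokinase and beta-actin transcripts on chip A, with 1 line per replicate. The GAPDH line of replicate 4 falls to 0.305 at the 5′ end and that of replicate 3 stays near 1.

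Lactate is made from pyruvate by lactate dehydrogenase, whose A subunit favours lactate formation and whose B subunit favours its use, and it crosses membranes through monocarboxylate transporters. Ldha had ratios of 0.647, 0.653, 0.766 and 0.571 (-0.61 ± 0.17, limma adjusted p = 0.00332), below the reference on every array. Ldhb had 1.01, 1.33, 1.01 and 1.097 (0.14 ± 0.19, limma adjusted p = 0.279), at or above it. All 4 values of Ldhb lay above all 4 of Ldha.

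Among the transporters, Slc16a1 (MCT1) had 1.08, 1.80, 1.19 and 1.496 on chip A (0.45 ± 0.33, limma adjusted p = 0.043). The call did not hold without replicate 2, 3 or 4 (limma adjusted p = 0.103, 0.0645 and 0.132), in a fit over probe sets (0.0518) or when the prior was trended and robust (0.0629). On chip B another Slc16a1 probe set read 0.21, 0.211, 0.211 and 0.214 (-2.24 ± 0.01, limma adjusted p = 4.17e-05), so that the array types went opposite ways for this gene. Slc16a3, which encodes MCT4, the lactate exporter of highly glycolytic cells, had 0.629, 1.03, 1.08 and 0.969 (-0.14 ± 0.36, limma adjusted p = 0.489), with replicate 1 low. Slc16a7, which encodes MCT2, the high-affinity transporter of neurons, had 0.628, 0.487, 1.05 and 0.414 (-0.73 ± 0.59, limma adjusted p = 0.0452), with replicate 3 apart from the rest. This call was lost after centring (-0.61, limma adjusted p = 0.0975), in a fit over probe sets (0.0566) and without replicate 1, 2 or 4 (0.101, 0.116 and 0.135).

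Pyruvate enters the citrate cycle by pyruvate dehydrogenase, which the kinases PDK1, PDK2 and PDK4 switch off, or by pyruvate carboxylase, which refills the cycle. Pc, the carboxylase gene, had ratios of 1.94, 1.21, 1.83 and 1.48 (0.67 ± 0.31, limma adjusted p = 0.00957), above the reference on every array. Pdha1, the catalytic subunit gene of the dehydrogenase, had a gene mean of -0.54 ± 0.26 (limma adjusted p = 0.0122), to which 1 probe set at -0.94 contributed more than the other at -0.15. Of the kinases, Pdk1 averaged 0.07 ± 0.27 and Pdk2 0.20 ± 0.19 (limma adjusted p = 0.676 and 0.146). Pdk4, the kinase gene induced by fasting and fatty acids, had 0.588, 0.62, 0.628 and 0.579 on chip A (-0.73 ± 0.06, limma adjusted p = 0.000573). On chip B it had 0.892, 1, 0.274 and 1.22 (-0.44 ± 0.97, limma adjusted p = 0.427), with replicate 3 alone far below the reference.

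The citrate cycle oxidizes acetyl-CoA and supplies the respiratory chain. Of its 6 measured genes 0 were higher and 3 were lower, against 9.17% and 32.9% of all chip A genes. Their median was -0.29, against -0.14 for all chip A genes. At an unadjusted p under 0.05 in limma the counts were again 0 higher and 3 lower. All 6 means were below 0, but the highest, that of Ogdh, lay at percentile 55.6 of all chip A genes. Most genes of the array type were thus below 0 too. After centring, Mdh1 (0.02) and Ogdh (0.03) lay above 0, and 3 genes were still lower. Mdh2, the mitochondrial malate dehydrogenase gene, had ratios of 0.679, 0.738, 0.75 and 0.678 (-0.49 ± 0.08, limma adjusted p = 0.00282). Cs, the citrate synthase gene, averaged -0.44 ± 0.18 (limma adjusted p = 0.0115) over 3 probe sets at -0.69, -0.60 and -0.05, so that 1 of them lay at the reference. Sucla2, a succinyl-CoA ligase subunit gene, had 0.843, 0.66, 0.689 and 0.763 on chip A (-0.44 ± 0.16, limma adjusted p = 0.00919). On chip B it had 0.863, 0.837, 0.853 and 0.898 (-0.21 ± 0.04, limma adjusted p = 0.0215), a call that was lost after centring (0.122) and without any 1 replicate (limma adjusted p = 0.0575 to 0.09). The lower values on both array types thus came from different probe sets of this gene. Mdh1, the cytosolic malate dehydrogenase gene, averaged -0.10 ± 0.03, Ogdh, a subunit gene of the oxoglutarate dehydrogenase complex, -0.09 ± 0.08 on chip A and 0.00 ± 0.16 on chip B, and Idh3a, an isocitrate dehydrogenase subunit gene, -0.14 ± 0.38, with limma adjusted p from 0.267 to 0.964.

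Glycogen is built by glycogen synthase and the branching enzyme and broken down by phosphorylase. Pygb, the brain phosphorylase gene, had ratios of 1.75, 1.66, 1.38 and 1.58 (0.67 ± 0.15, limma adjusted p = 0.00181), above the reference on every array and at percentile 95.1 of all chip A genes. Gys1, the synthase gene of most tissues outside liver, had 1.67, 1.18, 0.985 and 1.85 (0.46 ± 0.43, limma adjusted p = 0.0731), with replicate 3 at the reference. Without replicate 3 it passed (0.62, limma adjusted p = 0.0327). Gbe1, the branching enzyme gene, had 1.003, 1.03, 0.576 and 0.72 (-0.31 ± 0.40, limma adjusted p = 0.176). Pygm, the muscle phosphorylase gene, averaged -0.19 ± 0.20 (limma adjusted p = 0.172) over 3 probe sets that disagreed, at 0.46, -0.17 and -0.85, of which the lowest was called in the fit over probe sets (limma adjusted p = 0.0151).

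**Figure D3:**
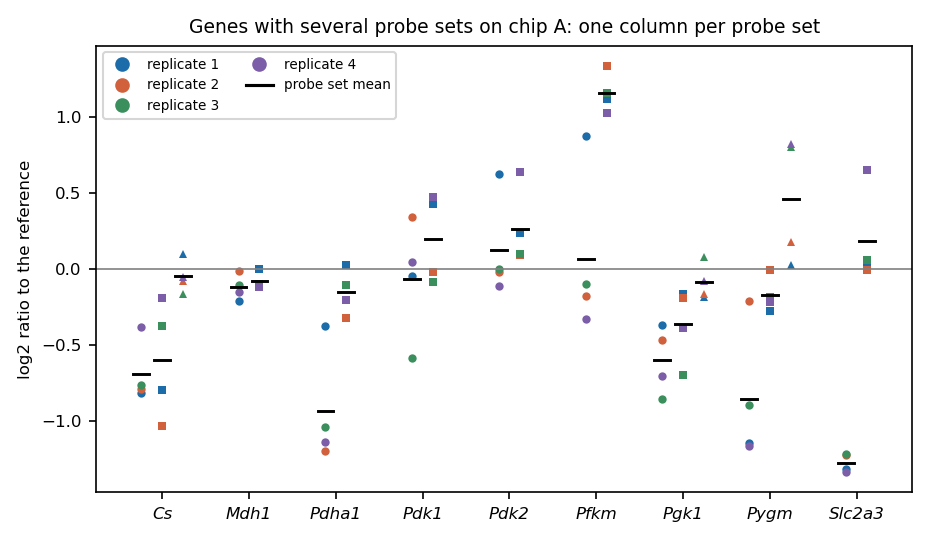
Log2 ratio to the reference of each probe set, by array, for the 9 genes of the set with several probe sets on chip A; each column of points is 1 probe set with a bar at its mean. The probe set means of Slc2a3, Pygm and Pfkm lie 1.46, 1.31 and 1.09 apart, those of Mdh1 0.04.

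Of the 9 genes with several probe sets on chip A, 6 had probe set means more than 0.5 apart on the log2 scale, up to 1.46 for Slc2a3. Several of the low values were also very even. Of the 47 probe sets 10 had a mean log2 ratio under -0.5, and 3 of these, for Hk2, Pdk4 and Slc2a3, had an SD under 0.1. On chip B that of Slc16a1 did. Such low, even probe sets made up 10.97% of all probe sets tested on chip A and 14.2% on chip B, and the same limits were met by 7 of 45 bacterial control probe sets, which have no rat target, on the first type and 8 of 45 on the second. The deviations of the arrays from a probe set's own mean were also compared: Hk2 had -0.03, 0.05, 0.07 and -0.09 in replicates 1 to 4, Pdk4 -0.04, 0.04, 0.06 and -0.06, and the 7 bacterial controls a median of -0.05, 0.05, 0.06 and -0.07. All tested probe sets of chip A had a similar median profile, at -0.03, 0.03, 0.05 and -0.05, but single ones followed it less often. The highest array was replicate 2 or 3 in 61.6% of all tested probe sets and in 92.9% of the low, even ones. It was so in the 7 bacterial controls, in Hk2 and Pdk4 and in the low Slc2a3 probe set. Probe sets picked for an SD under 0.1 vary little of their own, so that the profile shared by all probe sets shows in them. The likeness to the bacterial controls follows from that choice and cannot tell whether a transcript was detected. On chip B Slc16a1 was flatter, at -0.01, 0.00, 0.00 and 0.02, than the 8 bacterial controls, at -0.06, -0.04, 0.05 and 0.06. A low, even ratio does not show by itself that a transcript was less abundant, and whether these probe sets detected their transcripts was not tested.

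Isozymes and branches were set against each other within each array, as the difference of the log2 ratios of 2 genes. Such a difference says that they deviate unequally from their references, not that one transcript was more abundant. All 14 pairs compared had both genes on chip A. With 4 arrays the exact sign-flip permutation test (two-sided) cannot go below p = 0.125, so no pair could pass 0.05. In 10 of the 14 pairs all 4 arrays had the same sign (exact p = 0.125, or 0.175 after Benjamini-Hochberg adjustment over the 14).

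Aldoc exceeded Aldoa by 1.37, 1.13, 0.98 and 1.04 in replicates 1 to 4, a mean of 1.13 ± 0.17, or 2.19-fold on the ratio scale. Ldhb exceeded Ldha by 0.75 ± 0.29, with differences from 0.39 to 1.02, and Mdh1 exceeded Mdh2 by 0.39 ± 0.06. Aldolase showed the widest of the positive gaps and malate dehydrogenase the most even one. Hk2 minus Hk1 was -1.23 ± 0.49, Slc2a3 minus Slc2a1 -0.97 ± 0.21 and Pygm minus Pygb -0.85 ± 0.30. These 3 pairs involve the low, even Hk2 and Slc2a3 probe sets and the discordant Pygm ones. With the hexokinase controls counted in Hk1 its pair moved to -0.74. Slc16a7 minus Slc16a1 was -1.17 ± 0.84, Slc16a3 minus Slc16a1 -0.59 ± 0.31, Pdk4 minus Pdk1, which rests on the low, even Pdk4 probe set, -0.80 ± 0.32 and Gbe1 minus Gys1 -0.77 ± 0.48. Both Slc16a1 pairs rest on its chip A probe set, at 0.45, while that on chip B stood at -2.24. The other 4 pairs had both signs among their arrays: Pfkl minus Pfkm at -0.91 ± 0.66, Pfkp minus Pfkm at -0.44 ± 0.41, Eno2 minus Eno1 at 0.13 ± 0.22 and Pdk2 minus Pdk1 at 0.13 ± 0.23 (exact p from 0.25 to 0.5). The Pfkm value in its pairs is the mean of discordant chip A probe sets, at 1.16 and 0.07.

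**Figure D4:**
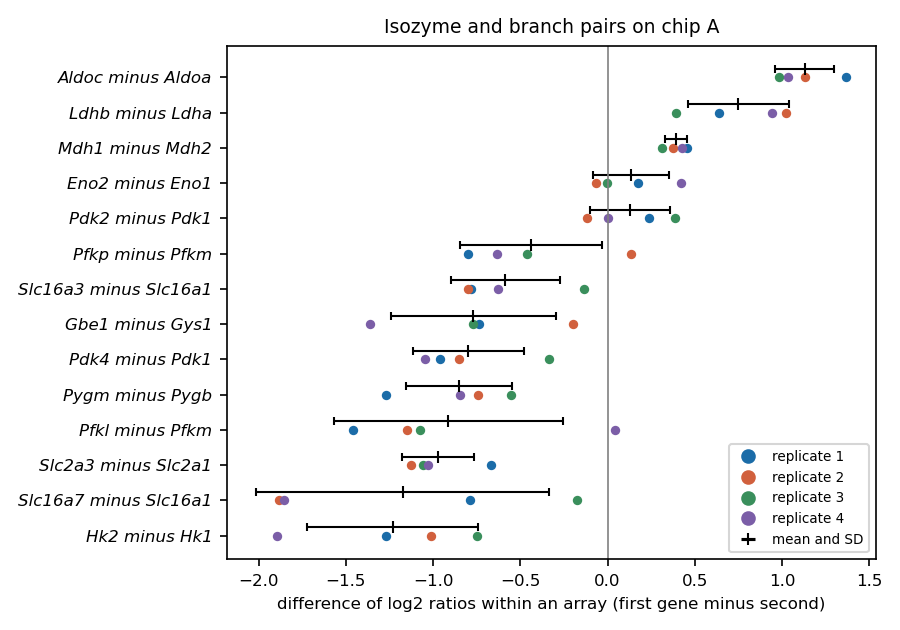
Difference of log2 ratios within an array (first gene minus second) for 14 pairs on chip A, with 1 point per replicate and the mean and SD above the points. All 4 points lie right of 0 for Aldoc minus Aldoa, Ldhb minus Ldha and Mdh1 minus Mdh2, and left of 0 for 7 pairs.

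Of 93 further genes of these pathways, 73 were measured on chip A, of which 8 were higher and 23 lower (10.96% and 31.5%, against 9.17% and 32.9% of all genes), with a median of -0.16. On chip B 14 were measured, 0 higher and 6 lower (42.9%, against 30.9%), with 1 higher at an unadjusted p under 0.05 in limma. Among the other citrate cycle genes 0 of 13 were higher and 4 lower, and of the pentose phosphate pathway, which makes NADPH and ribose, 0 of 6 were higher and 3 lower. The largest higher value was that of Phkb, a subunit gene of phosphorylase kinase, which activates glycogen phosphorylase, at 2.83, 2.34, 2.06 and 2.20 (1.23 ± 0.20, limma adjusted p = 0.000325). Of the other phosphorylase kinase and phosphorylase genes of these lists, Phka1, which encodes another subunit of the same kinase, was lower at -0.50 ± 0.11 (limma adjusted p = 0.00383), and Phkg1, Phkg2, Phka2 (on chip B) and Pygl, the liver phosphorylase gene, were not called (-0.29, 0.00, 0.08 and -0.15). Epm2a, the glycogen phosphatase gene, averaged -1.16 ± 0.06, and Ppp1r3b, which targets a phosphatase to glycogen, -1.14 ± 0.07 on chip A and 0.68 ± 0.48 on chip B (limma adjusted p = 0.000148, 0.000154 and 0.0525). The lowest values belonged to Fbp1, the fructose bisphosphatase gene, at -1.81 ± 0.07 and Slc2a2, which encodes the liver and islet transporter GLUT2, at -1.46 ± 0.07 (limma adjusted p = 0.000115 and 0.000121). The chip A probe sets of Fbp1, Slc2a2, Epm2a and Ppp1r3b were low and even by the limits used above (mean under -0.5, SD under 0.1). Whether they detected their transcripts was not tested. Rpe of the pentose phosphate pathway at -0.92 ± 0.19, the fructose transporter gene Slc2a5 at -0.81 ± 0.39, Ldhd at -0.79 ± 0.15 and, on chip B, Bpgm at -0.92 ± 0.44 and Ppp1r3d at -0.86 ± 0.07 were lower as well (limma adjusted p from 0.000246 to 0.0163). On chip A Bpgm and Ppp1r3d were near the reference, at -0.08 and -0.03, and were not called (limma adjusted p = 0.405 and 0.866).

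Marker genes were read in the same fit, because several of the genes above are used unequally by brain cell types. Of 13 astrocyte markers on chip A 9 were higher (69.2%, against 9.17% of all chip A genes) and 0 lower. Their median log2 ratio was 1.41, from Clu at 0.01 to Aldh1l1 at 2.50. The list's median on each array was 1.41, 0.75, 1.52 and 1.20 in replicates 1 to 4. Aldoc, Pygb and Pc, whose products are prominent in astrocytes, stood above the reference, as did most of that list. Higher markers were not particular to it. Of the oligodendrocyte lineage markers on chip A 4 of 7 (57.1%) were higher too, and of the neuron markers 6 of 11 (54.55%). The part of any cell type in the values of the 3 genes was not tested. The median of the astrocyte list was lowest in replicate 2 and highest in replicate 3. Pc was also lowest in replicate 2 and was highest in replicate 1. Pygb and Aldoc were lowest in replicate 3 and Aldoc was highest in replicate 2, but Aldoc varied little between arrays (SD 0.06). On chip B Fgfr3 was higher at 1.61 and Sox9 lower at -1.73 ± 0.01, from a low, even probe set of the kind described above.

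Of 7 oligodendrocyte lineage markers on chip A 4 were higher, with a median of 0.88, from Olig1 at -0.07 to Cspg5 at 1.74, and Sox10 had ratios of 0.722, 0.401, 1.34 and 2.57 (0.00 ± 1.15), far below the reference on 1 array and far above it on another. On chip B Olig2 averaged -0.23 (lower, but not called after centring) and Nkx2-2 -0.39 (not called). Of 9 myelin genes 0 were higher and 3 lower, or 33.3% against 32.9% of all genes (median -0.05, from Gjb1 at -1.39 to Mag at 0.43), with 1 higher at an unadjusted p under 0.05 in limma. After centring 1 was higher and 2 were lower. On chip B 2 of 3 myelin genes were lower (median -0.55), Opalin at -1.18 and Ermn at -0.55, against 30.9% of all chip B genes. After centring only Opalin was. The probe sets of Opalin on chip B and of Gjb1 on chip A were low and even too (SD 0.05 and 0.08). Of 11 neuron markers 6 were higher, with a median of 0.38, from Nefl at -0.09 to Elavl4 at 1.81. The neuron marker measured on chip B, Syt1, was lower at -0.45 ± 0.03 (limma adjusted p = 0.00145). Of 8 endothelial markers none was called, at an unadjusted p under 0.05 either (limma, median 0.11, from Pecam1 at -0.16 to Vwf at 0.53). Of 10 microglia markers 6 were lower, or 60% against 32.9% of all genes (median -0.53, from C1qb at -0.77 to Cd68 at -0.27). After centring 1 of the 10 was lower, against 24.6% of all genes. The 2 measured erythroid markers, Alas2 and Hbb, were not called (median 0.40). These ratios place the sorted cells against an unnamed reference and do not show which cell types were present.

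**Figure D5:**
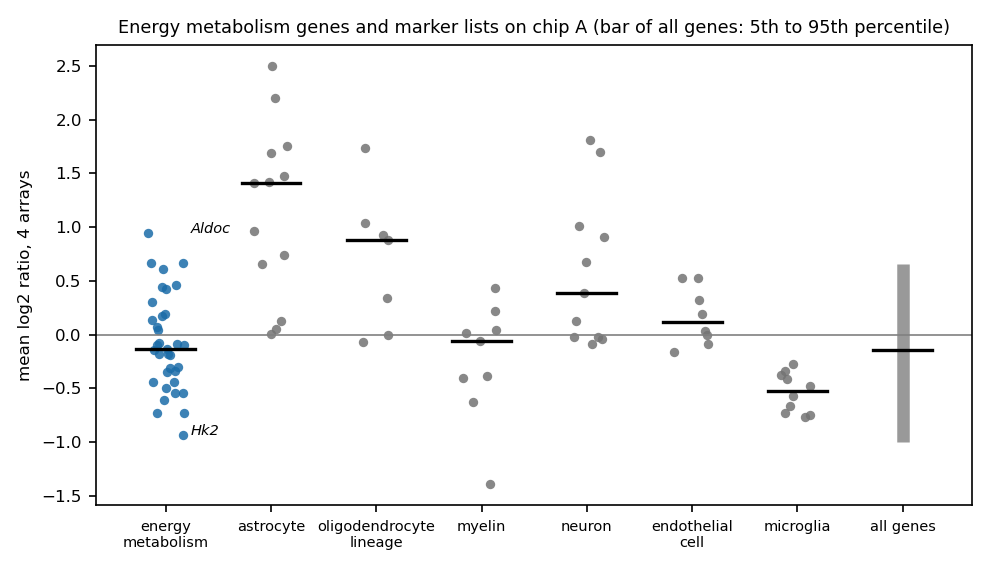
Mean log2 ratio over 4 arrays of each measured gene on chip A, for the energy metabolism genes and 6 marker lists, with a bar at each median; the grey bar spans the 5th to 95th percentile of all genes. The energy metabolism genes centre near the median of all genes (-0.14), while the astrocyte list centres at 1.41.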

How the data were processed

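The deposited values are linear ratios per probe set to an unnamed reference. The submitters' processing notes name RMA and give no version. Per the labels, extraction used Qiagen reagents and labelling the small-sample protocol of Affymetrix. How ratios were formed is not stated in these sources. Ratios were put on the log2 scale with no pseudocount, no filter on low values was applied, and the 57 control probe sets of each type were left out, which left 15866 and 15276. Median ratios per array ran from 0.888 to 0.967. Probe sets were named from the platform annotation, updated by gene ID through the RefSeq table (GRCr8; 12748 and 7524 single-gene probe sets matched, 0 symbols changed). Gene means were fitted with limma 3.58.1 (R 4.3.3; intercept, eBayes, two-sided), a script tested on simulated data. Over the 100 ordinary probe sets on both types, deviations from the mean correlated between same-numbered arrays (r from 0.736 to 0.823 across probe sets) and from -0.5 to -0.013 between others, where deviations from a mean over 4 arrays lean below 0 by construction. The genes, lists, pairs and motif were chosen with earlier results of these data known. All listed genes are named, with up to 10 other pathway genes of the largest change among those called and the highest and lowest markers of each list on chip A; the other phosphorylase kinase genes, Pygl, Sox10 and the markers on chip B were named after their values were seen.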

Additional observations from a re-analysis of the deposited data

Results flagged for a closer look

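In 3 of 41 sets of 4 arrays, 1 array stood apart, with a gap to its nearest neighbour, as a share of the whole range, above Dixon's 95% critical value. Chance flags about 1 in 20 such sets. Pfkl had a ratio of 1.31 in replicate 4 against 0.673 to 0.727 in the others on chip A (gap 0.884 of the range). Aldoa had 0.744 in replicate 1 against 0.926 to 0.949 (0.899). Pdk1 had 0.792 in replicate 3 against 1.12 to 1.20 (0.831).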

How the results depend on the processing

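Alternatives were centring, a pseudocount of 0.1, the median over probe sets, a fit over probe sets, a trended, robust prior, a minimum change of 0.5, control probe sets kept and each replicate left out. In the fit over probe sets a gene counted as called if at least 1 of its probe sets passed. No gene's call reversed, and 10 of 18 calls held under all of them in this sense. Not every alternative could move every gene. The median over probe sets could alter the values of Cs, Pgk1 and Pygm alone, which have 3 probe sets each, and keeping controls those of Hk1 alone among the measured genes. The calls that held include those of Hk2, Pdk4 and Slc2a3 on chip A and Slc16a1 on chip B, which rest on low, even probe sets. With a minimum change of 0.5 the 10 lower genes on chip A became 6. The 2 lower genes on chip B became 1 after centring, with that minimum and without any 1 replicate (1 in each case). Without 1 replicate the chip A counts were 4 to 6 higher and 9 to 10 lower. With control probe sets kept, Hk2 minus Hk1 was -0.74, and Hk1 on chip B was lower (-0.30, limma adjusted p = 0.00964). In the fit over probe sets 1 of the 3 Pygm probe sets was lower and the others were not called. No paired analysis was possible because 1 group was measured, so that there were no groups whose replicates could be paired. No detection calls or intensities were used, so the precision set by signal over background is unknown.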
